A study of Homo sapiens with 6 samples.

Results

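The reverse transcriptase (RT) stops described here were strong, differed between libraries labelled with different RT cations, and lay at a G without the usual quadruplex motif. For each nucleotide, E was its number of RT stops over the mean number of stops per nucleotide of the transcript, where positions with under 3 stops are not listed and count as 0. Members were chosen by E in both libraries made without dimethylsulfate (DMS). The library labelled Na+ had to give an E of 10 or more, at least 2-fold that of the library labelled K+. The motif, absent from the 45 nt ending at each member, was 4 G runs, each of 2 or more, joined by loops of 1 to 9 nt. Of 5431 strong stops at G, 3631 passed the 2-fold difference. A motif was found at 3071 of these and none at 542, while 18 could not be matched to a sequence. The 542 members lay on 360 transcripts of 360 genes and formed 456 regions when stops within 30 nt were merged. With a transcript mean that includes stops under 3, 289 stops were members. The 3631 stops were 0.393% of the 924855 G positions listed on 2723 transcripts, those averaging 1 or more stops per nucleotide in each of these libraries.

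RNA G-quadruplexes (rG4s) form when runs of guanines pair in stacked tetrads around a monovalent cation. K+ stabilises these stacks well, Na+ less so and Li+ hardly at all, and a folded rG4 can stop RT at the guanine of its 3′ edge. Searches for rG4s usually ask for runs of G joined by short loops, although longer loops, bulged runs and runs brought in from outside the searched window can also give quadruplexes in vitro.

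The study asked how rG4s fold in U2OS cells, an established human osteosarcoma line, when nutrients are withdrawn. In total 6 libraries were made from polyA+ RNA, with 1 library per condition, and RT stops were mapped to single nucleotides. In the absence of DMS, RT was carried out in a cation at 150 mM, labelled Na+ or K+, but these labels are in doubt (next paragraph). In vitro, RNA was refolded and modified with DMS in 150 mM K+ or Li+, and in vivo, unstressed cells or cells starved for 2 h in a balanced salt solution were given 8% DMS for 5 min. All DMS libraries were reverse transcribed in 150 mM K+. DMS methylates accessible G at N7 and prevents it from joining a quadruplex, so that a G protected by folding keeps its stop. Listed stops summed to 33507714 in the library labelled Na+ and 35371061 in that labelled K+. The in vitro libraries held 21480565 (K+) and 31174408 (Li+), unstressed cells 12999691 and starved cells 24014417.

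For the libraries without DMS, sample label and file name give opposite cations, and the methods of the study name Li+ beside K+ for this step. Names used here follow the sample labels, and neither labels nor names settle which cation made the members strong. In the study's results, stops stronger in K+ than in Na+ lie mostly at G. Here the library labelled Na+, whose file is named for K+, had 3631 of 5431 strong stops at G at least 2-fold stronger, and that labelled K+ 387 of 2222. Stops with the motif numbered 3071 and 36 in these directions. The values thus run with the file names, and the cation itself was not tested. The other 4 libraries show no such contradiction. Without replicates, no difference below has a replicate check. Intervals are 95% intervals, Wilson for shares, order-statistic for medians and exact for ratios of counts, and those for single stops cover counting error only. Those for shares and medians take stops as independent, although 116 of 542 members lay next to another member.

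The members fell into sequence classes that the choice did not use beyond the absence of the motif, and the sequences below show each main class. They were picked from the members with the highest E, those with the largest in vitro K+ over Li+ ratio and strong members of the other classes, not always the strongest of each. Capitals mark runs of at least 2 G, and the last base is the stop. Members in untranslated regions (UTRs) are shown by 30 nt and the others by the whole 45 nt. In the first 7, the 45 nt held 4 runs of G with a loop of more than 9 nt.
COLGALT1: caGGGagcugagcuauGGGauGGGaauGGG
AHNAK: uGGGGGcuuuuguuaguaaGGGuGGGuGGG
TKT: gccuaGGGcGGGuaugaaguguGGGGcGGG
NEAT1: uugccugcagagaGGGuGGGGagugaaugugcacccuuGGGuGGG
PTP4A1: caGGGaGGGccugagaaaagaauGGGaGGG
MALAT1: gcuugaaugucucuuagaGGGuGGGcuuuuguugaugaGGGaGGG
SET: caaaGGGuGGGuuugagauguuuGGGuGGG
PYGL: auaguugaguaucucuGGGaauGGGGaGGG
PCNP: ugauguuuugaaauuGGGGuguGGGGuGGG
EPN1: cccuuccuccuauaauccaGGGcGGaaGGG
SRRM2: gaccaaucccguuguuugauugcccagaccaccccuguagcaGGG
GSPT1: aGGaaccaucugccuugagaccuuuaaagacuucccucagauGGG

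In PYGL and PCNP a further run appeared when GNG was counted as a run, and in EPN1 when the 15 nt after the stop were added. SRRM2, a splicing cofactor, and GSPT1, a translation release factor, fell in none of these classes. EPN1 is an endocytic adaptor. On GRCh37, the sequences of the last exons of protein-coding genes lay in 3′ UTRs at chr19:17693158-17693187 (plus strand, COLGALT1), chr11:62283802-62283831 (minus, AHNAK), chr3:53259748-53259777 (minus, TKT), chr6:64290819-64290848 (plus, PTP4A1) and chr9:131457468-131457497 (plus, SET). The same held for chr14:51371985-51372014 (minus, PYGL), chr3:101311599-101311628 (plus, PCNP) and chr19:56206708-56206737 (plus, EPN1). The noncoding RNAs gave chr11:65191328-65191372 (plus, NEAT1) and chr11:65270041-65270085 (plus, MALAT1), each within an RNA of 1 exon. The coding sequences were chr16:2817898-2817942 (plus, exon 11 of 15 of SRRM2) and chr16:11969641-11969685 (minus, exon 14 of 15 of GSPT1).

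In 245 of 542 members (45.2%, 41.1 to 49.4%), 4 runs were present with a loop of more than 9 nt. Of the rest, 34 (6.27%) had 4 runs when GNG counted as a run, 12 (2.21%) when the 15 nt after the stop were added, 2 (0.369%) had 3 runs with loops of 1 to 9 nt, and 249 (45.9%, 41.8 to 50.2%) had none of these arrangements and are called unclassed. Of the unclassed members, 35 (14.1%) still had at least 3 runs of 2 or more G. Among 1577 strong stops at G under the 2-fold difference and without the motif, 207 (13.1%, 11.6 to 14.9%) had the long loop and 1137 (72.1%) were unclassed. Of 554947 G positions without the motif that were listed in the library labelled Na+, 13.8% had 4 runs with a long loop. The longest loop needed in the 245 members ranged from 10 to 32 nt with a median of 13 nt, and it was at most 15 nt in 172 of them (70.2%). Where 4 separate runs were present (236 members), the longest loop was the 5′ one in 78, the middle one in 87 and the 3′ one in 71, so no place in the arrangement prevailed. In 138 of these 236 (58.5%) both other loops were at most 3 nt.

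The values that chose the members differed between these classes. Over all members, median E was 12.2 in the library labelled Na+ and 3.51 in that labelled K+, against 23.7 and 1.18 at stops with the motif and 12.1 and 10.8 at the stops under 2-fold. Members with a long loop had a median E of 17.8 and 1.95 and a median of 50 stops in the library labelled Na+, whereas unclassed members had 11.2 and 4.41 and a median of 14 stops. E reached 20 in 106 of the 245 long-loop members and in 4 of the 249 unclassed ones. These values describe the choice and test nothing.

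**Figure D1:**
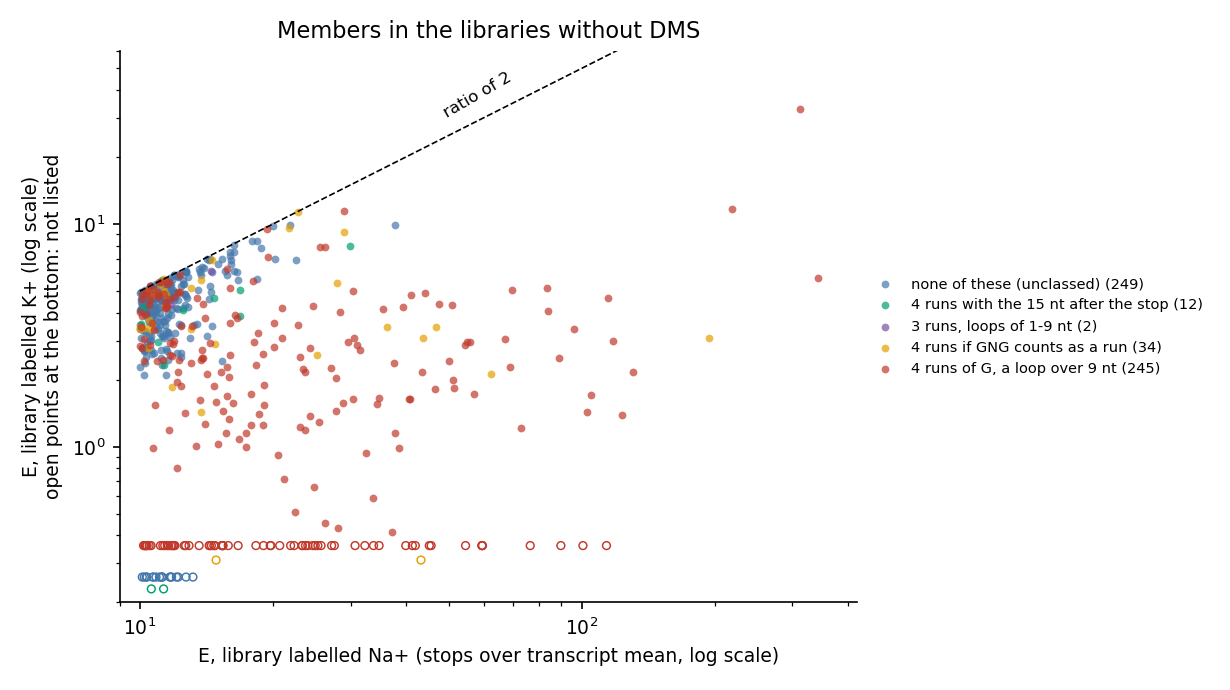
E of the 542 members in the libraries without DMS, as stops over the transcript mean on log axes. Each point is a member, coloured by sequence class, open points were not listed in the library labelled K+, and the dashed line is the 2-fold limit; unclassed members crowd near E of 10, while those with a long loop extend to 344.

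The members just inside the limits had few stops. RELA, a subunit of NF-kB, with 10 and 3 stops in the libraries labelled Na+ and K+, had an E of 10 and 2.83, and the deubiquitinase USP7, with 16 and 6 stops, an E of 10.0 and 3.36. Both members on PHAX, an adaptor for RNA export, had 13 and 7 stops, an E of 10.5 and 5.25 and a ratio of 2.003. Just outside lay FEZ2 with an E of 9.98 and 1.75 (16 and 3 stops) and the ubiquitin ligase RNF10 with 9.98 and 4.99 (15 and 8 stops). For the ratio, PREB, an exchange factor of the secretory pathway, lay at 1.999 (11 and 6 stops) and the centromere protein CENPN at 1.996 (12 and 7 stops). For each of these, a change of 1 stop in the library labelled Na+ would cross the limit.

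Applying the same rule with the libraries exchanged gave 350 stops at G without the motif that were stronger in the library labelled K+. In this opposite direction 44 stops (12.6%, 9.50 to 16.5%) had a long loop and 259 (74.0%, 69.2 to 78.3%) were unclassed. Unclassed stops were therefore about as numerous in both directions, 249 and 259, with a median E of 11.2 and 11.2 and a median of 14 and 15 stops. Stops with a long loop numbered 245 and 44, with a median E of 17.8 and 11.5 and a highest E of 344 and 17.8. Bulged stops numbered 34 and 28, with a highest E of 195 and 14.3.

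**Figure D2:**
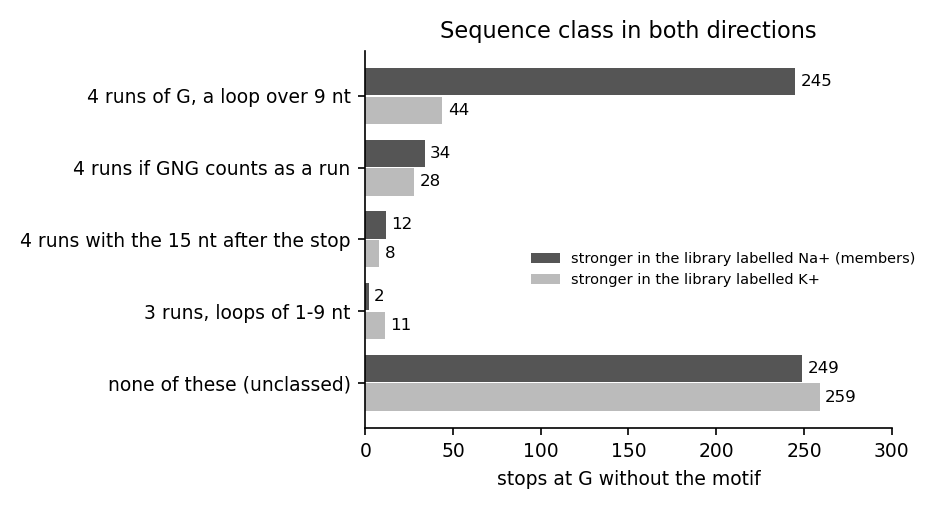
Number of stops at G without the motif in each sequence class, for the members (dark bars) and for stops chosen with both libraries exchanged (light bars). The class with a long loop had 245 and 44 stops, and the unclassed stops 249 and 259.

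G content before the members lay between that of both comparison sets. The 45 nt had a median G content of 31.1% in members, 24.4% at stops under 2-fold without the motif, 48.9% at stops with the motif and, in the library labelled Na+, 26.7% at all listed G positions and 24.4% at those without the motif. Within the members it was 42.2% with a long loop and 22.2% in unclassed members, so that the value over all members joins unlike classes. The value of unclassed members was below all comparison sets, but this class excludes windows with 4 runs of G by definition. At least 3 runs of 2 or more G were present in 322 members (59.4%, 55.2 to 63.5%), in 547 of the 1577 stops under 2-fold (34.7%) and at 35.7% of listed G positions without the motif.

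Many stops lay within or at the end of a run of G. The last 3 nt were GGG in 210 members (38.7%, 34.7 to 42.9%), against 228 stops under 2-fold (14.5%), 1850 stops with the motif (60.2%) and 5.68% of listed G positions without the motif. The next base was also G, so that the run went on, at 154 members (28.4%) and at 101 of the 245 with a long loop (41.2%). GGG followed by GGG after 1 to 3 nt, within the 12 nt ending at the stop, was seen at 84 members (15.5%), of which 76 had a long loop, at 17 stops under 2-fold (1.08%), at 1215 stops with the motif (39.6%) and at 0.452% of listed G positions without it. This pair of runs, and the counts of GGG runs, were looked for after the sequences were seen. Within the long-loop class, 94 of 245 members (38.4%) held 4 runs of at least 3 G, and 3 of 207 stops under 2-fold (1.45%). Over all members this was 17.3%, against 0.190% of all stops under 2-fold, 46.8% of stops with the motif and 0.124% of listed G positions without it. Unclassed members ended in GGG in 30 of 249 cases, were followed by A in 143 (57.4%) and lacked any GGG in 181 (72.7%). Stops under 2-fold of any class were followed by A in 51.4% and lacked any GGG in 60.4%, and listed G positions without the motif lacked it in 64.1%. Unclassed members exclude windows with 4 runs of G by definition, and these features were not counted for unclassed stops under 2-fold alone.

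**Figure D3:**
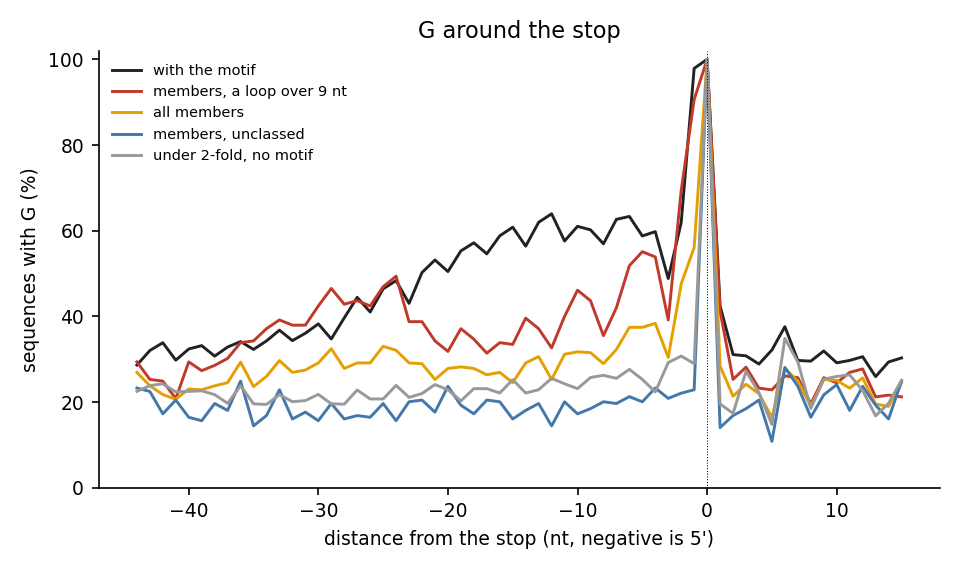
Share of sequences with G at each distance from the stop, for members and comparison stops. Lines are stops with the motif, long-loop members, all members, unclassed members, and stops under 2-fold without the motif; at 5 nt before the stop G was found in 55.1% of long-loop members and 20.1% of unclassed ones.

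Secondary structure was predicted for the 45 nt without quadruplexes. The median minimum free energy was -7.1 kcal/mol in members, -6.9 at stops under 2-fold and -9.7 at stops with the motif. It was -8.9 in long-loop members and -5.8 in unclassed ones.

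Some members adjoined stops that had the motif. A stop with the motif that passed the same values lay within 45 nt of 44 members (8.12%), 40 of them with a long loop, and within 10 nt of 32. This share was not computed for stops under 2-fold or for all G positions, so it sets the members apart from nothing. In 35 of the 44 it was on the 3′ side. At AHNAK the strongest member was 7 nt before such a stop. Of the 360 transcripts, 176 (48.9%, 43.8 to 54.0%) carried at least 1 stop with the motif anywhere, compared with 231 of 484 transcripts with strong stops under 2-fold (47.7%) and 911 of 2722 transcripts with a listed G (33.5%). Of the long-loop members 110 (44.9%) were next to another member, compared with 0 of the 249 unclassed ones.

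Most members were in 3′ UTRs. These held 321 members (59.2%, 55.0 to 63.3%), coding sequences 193 (35.6%), 5′ UTRs 18 (3.32%) and noncoding RNAs 10 (1.85%). Stops with the motif were in 3′ UTRs in 60.9%, stops under 2-fold without the motif in 49.8%, and all G positions listed in the library labelled Na+ in 33.2%. For the 350 stops of the opposite direction this share was 58.6%, near that of the members. The 5′ UTRs, in contrast, held 13.2% of stops with the motif, 7.10% of stops under 2-fold without the motif, 3.32% of members and 4.83% of all listed G positions. Within the members, 162 of 245 with a long loop (66.1%, 60.0 to 71.8%) and 131 of 249 unclassed (52.6%, 46.4 to 58.7%) were in 3′ UTRs.

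Members were spread thinly over transcripts. There was 1 member on 239 transcripts, 2 on 86 and at least 3 on the others. UBE2Q1, an E2 ubiquitin-conjugating enzyme, had 7 members and ATP6V1C1, a subunit of the vacuolar proton pump, had 6. COX11, a copper chaperone of cytochrome c oxidase, VAPA, a membrane protein of the endoplasmic reticulum, and TMED10, a cargo receptor of the early secretory pathway, had 5 each. The stops on UBE2Q1 had 11 to 17 RT stops in the library labelled Na+ and those on ATP6V1C1 11 to 15, and none of either had a long loop. The 5 COX11 members, in contrast, all had a long loop, and 4 of them lay between nucleotides 55 and 66 of the transcript, with E up to 43.6. APP, APH1A, HIRA, LMNB1, CDKN1B and ACTB, looked up by name, held no member.

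The 8 strongest members were all in 3′ UTRs, 7 of them with a long loop. COLGALT1, which adds galactose to collagen, had 510 stops in the library labelled Na+ and 8 in that labelled K+. In vitro it had 9 in K+ and 12 in Li+, and in cells 3 when unstressed and 7 when starved. Its E of 344 in the library labelled Na+ was the highest of all members, and the DMS libraries gave it few stops. AHNAK, a large scaffold protein, had 570 and 60, 32 and 15, and 12 and 18 stops in the same order. MAGOHB, a subunit of the exon junction complex, had 540 and 29, 26 and 13, and 0 listed and 23. For all 3, the highest E of the 6 libraries was that of the library labelled Na+. PYGL, a glycogen phosphorylase and the only bulged member among the 8 strongest, had 243 and 4 stops without DMS, 5 in vitro in K+ and none listed in the other 3 libraries. Of the other members among the 8, TKT, a transketolase, had 623 and 10 stops without DMS, AHSA1, a co-chaperone of Hsp90, 845 and 9, the cell cycle regulator E2F1 125 and 3, and the enolase ENO2 304 and 11.

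**Figure D4:**
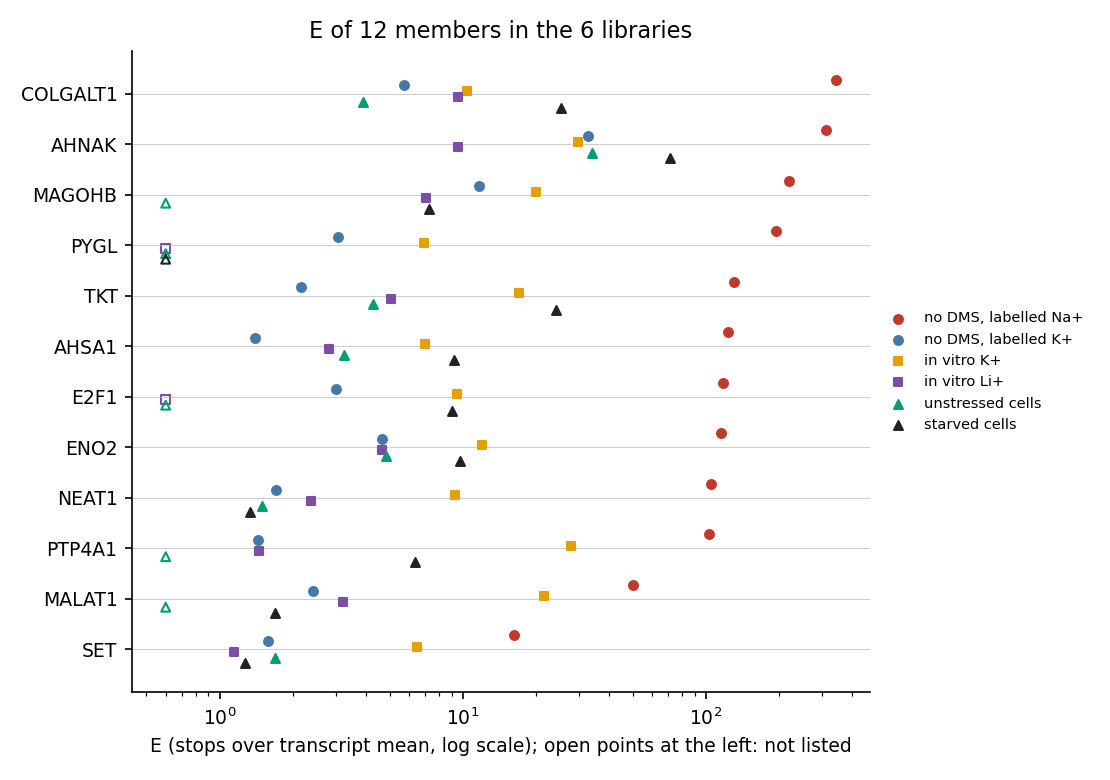
E in each of the 6 libraries, on a log axis, for the 8 members with the highest E and those with the highest in vitro ratio of K+ over Li+. That ratio was ranked among members with at least 20 stops over the pair. Each symbol is 1 library and open symbols were not listed. The library labelled Na+ is the highest for all 12, and in vitro K+ lies above Li+ for all 12. Members were picked by these values, so both orders largely follow from the choice. PYGL and E2F1 were not listed in Li+, and COLGALT1 had the least difference, 1.09-fold (0.404 to 2.81).

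Stop counts of the DMS libraries played no role in the choice, although the transcript length in E was the largest position listed in any library. A position was compared where the transcript had at least 1 stop per nucleotide in both libraries and the position had at least 10 stops over the pair, with 1 stop added to each. This left 96 of 542 members, since 193 lay on such transcripts, and these 96, of which 70 had a long loop, do not stand for all members. Their median log2 ratio of E in K+ over Li+ was 0.51 (0.23 to 0.66). It was 0.47 (0.42 to 0.51) over 1082 stops with the motif, 0.07 (0.03 to 0.12) over 773 stops under 2-fold without the motif and 0.11 over 144750 G positions. E was at least 2-fold higher in K+ at 24 of the 96 members (25.0%, 17.4 to 34.5%), compared with 8.97% of all G positions, 25.5% of stops with the motif and 5.43% of stops under 2-fold. The opposite difference was seen at 4 members (4.17%), compared with 3.83% of all G positions. Over positions listed in both libraries, it was seen at 2 of 94 members (2.13%) and at 2.35% of all G positions. The members compared had a median of 19.5 stops over the pair, all G positions 16 and stops under 2-fold 42.

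By class, the median was 0.57 (0.31 to 0.85) over 70 long-loop members, with 21 at least 2-fold higher in K+. It was 0.31 (-0.44 to 0.93) over 18 unclassed members, with 3 at least 2-fold higher, and 0.14 over 7 bulged members, with 0. The intervals of these classes overlapped, and whether they differ was not tested.

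Among members with at least 20 stops over the pair, the 5 with the largest in vitro ratio all had a long loop. PTP4A1, a tyrosine phosphatase, had 403 and 6 stops without DMS (labelled Na+ and K+), 71 in K+ and 5 in Li+ in vitro, and none listed and 8 in cells (unstressed and starved). Its in vitro E was 27.8 and 1.45, a 19.1-fold difference (7.81 to 60.6). MALAT1, a nuclear noncoding RNA, had 201 and 10 stops without DMS, 46 and 10 in vitro, none listed and 18 in cells, and a 6.72-fold difference (3.34 to 14.9). SET, a histone chaperone and phosphatase inhibitor, had 329 and 31 stops without DMS, 79 and 19 in vitro, 12 and 16 in cells, and a 5.67-fold difference in vitro (3.401 to 9.91). These members were picked by this ratio, so their size is a description. The MALAT1 member 1 nt before, with a higher E in the library labelled Na+, had none listed in K+ and 6 in Li+. NEAT1, the noncoding scaffold of paraspeckles, had 862 and 13 stops without DMS, 40 and 14 in vitro and a 3.92-fold difference (2.09 to 7.79). TKT had 50 and 20 stops in vitro and a 3.38-fold difference (1.98 to 6.00).

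Members with lower E in K+ included HSPA5, a chaperone of the endoplasmic reticulum, and SELENOT, a selenoprotein. They had none listed in K+ and 10 and 11 stops in Li+, with log2 ratios of -2.94 and -3.11 and upper bounds of the fold of 0.640 and 0.554. DDT, a tautomerase, had 3 and 12 stops (-1.24) and ZWILCH, a kinetochore protein, 3 and 11 (-1.09). These are the 4 that were at least 2-fold lower. Among members with at least 20 stops over the pair, FIBP, which binds a fibroblast growth factor and has a bulged member in its 5′ UTR, had 7 stops in K+ and 18 in Li+ and a log2 ratio of -0.67. NDUFC2, a subunit of respiratory complex I, had 11 and 26 stops (-0.60), the ribosomal protein gene RPL36 9 and 18 (-0.49) and PRKDC, the catalytic subunit of the DNA-dependent protein kinase, 10 and 21 (-0.42). A further AHNAK member, next to the strongest one, had 7 and 16 stops (-0.54). The intervals of these 5 held 1.

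**Figure D5:**
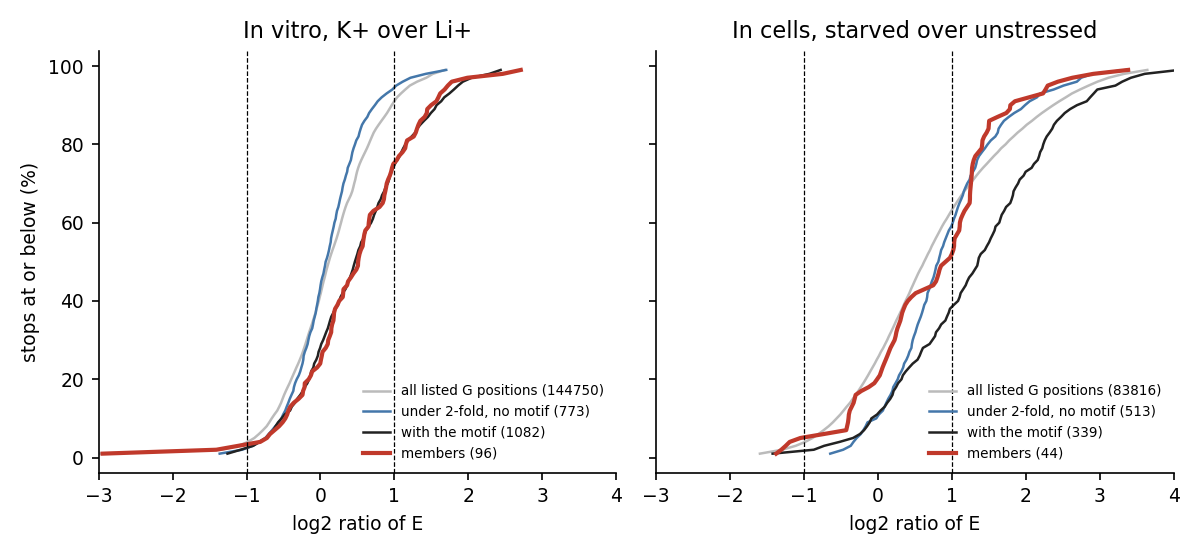
Cumulative share of stops by log2 ratio of E, in vitro in K+ over Li+ (left) and in starved over unstressed cells (right), with the number of stops compared in the legend. Dashed lines mark a 2-fold difference. In vitro the members (median 0.51) run with the stops that have the motif (0.47). In cells the members had 0.91, stops under 2-fold without the motif 0.82 and stops with the motif 1.35. That 0.91 includes members not listed in unstressed cells. Over positions listed in both libraries, the members had 0.49 and all G positions 0.37. Stops under 2-fold then had 0.77 and stops with the motif 1.19.

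In cells, 44 members could be compared, 36 of them with a long loop and 6 unclassed. Their median log2 ratio of E in starved over unstressed cells was 0.91 (0.30 to 1.24), against 0.62 over 83816 G positions, 0.82 (0.74 to 0.89) over 513 stops under 2-fold without the motif and 1.35 (1.19 to 1.52) over 339 stops with the motif. E was at least 2-fold higher in starved cells at 21 of the 44 members (47.7%, 33.8 to 62.1%), compared with 36.7% of all G positions, 40.5% of stops under 2-fold and 61.4% of stops with the motif. It was at least 2-fold lower at 3 members (6.82%), compared with 3.86% of all G positions, 0.195% of stops under 2-fold and 2.06% of stops with the motif. By class, the median was 0.79 (0.17 to 1.16) over the long-loop members, with 15 at least 2-fold higher, and 1.399 (0.33 to 2.31) over the unclassed ones, with 5. The 15 include members of SRSF1, MALAT1 and the noncoding RNA DANCR that were not listed in unstressed cells. Those passed the filter by their stops in starved cells alone, and the values over positions listed in both libraries, below, are not split by class. On this treatment of unlisted positions the background lay within the interval of the members.

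These values depend on positions missing from 1 library. Of the 44 members, 7 were not listed in unstressed cells, entered with 0 stops and passed the filter by their stops in starved cells alone. Over the 37 listed in both, the median was 0.49 (0.17 to 1.03), against 0.37 over 66637 G positions, 0.77 over stops under 2-fold without the motif and 1.19 over stops with the motif. Of these 37, 14 (37.8%, 24.1 to 53.9%) were at least 2-fold higher in starved cells, compared with 21.2% of all G positions and 37.6% of stops under 2-fold without the motif. By this share the background lay just below the interval of the members, while by the median it lay within. Neighbouring members are not independent, so this is a description and the difference was not tested. With 2 stops at unlisted positions, the members had a median of 0.57 (0.17 to 1.03) and all G positions 0.45, and 36.4% (23.8 to 51.1%) and 24.1% were at least 2-fold higher. Under both treatments the median of the members was below that of the stops under 2-fold without the motif, and their intervals overlapped.

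The background itself was shifted. On the 2723 transcripts, G took 17.1% of the listed stops in starved cells and 9.76% in unstressed cells, and A and C together 77.0% and 87.4%. When counts were set relative to the mean of the G of the same transcript, the median of all G positions fell to -0.05 and that of the members to 0.24 (-0.34 to 0.50), with 7 members at least 2-fold higher (15.9%) and 5 at least 2-fold lower (11.4%). Of all G positions, 21.7% were higher and 13.9% lower on that scale, and of stops under 2-fold without the motif 15.0% and 3.704%, with a median of 0.18. The interval of the members' median held both medians. Stops with the motif kept a median of 0.66 (0.51 to 0.78) on that scale. In vitro the same scale gave the members 0.35 (0.13 to 0.57) and all G positions 0.03, with 20 members at least 2-fold higher in K+ (20.8%) and 4 lower (4.17%), compared with 6.86% and 4.82% of all G positions.

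The members with the highest and lowest ratios after starvation are described here as picked by that ratio, which includes the shift of all G positions. SRSF1, a splicing factor, had 2 adjacent members in its 3′ UTR with 0 listed and 24 stops and with 3 and 23 stops in unstressed and starved cells. LSM5, which binds U6 small nuclear RNA, had 0 listed and 20 stops, the ribosomal protein gene RPSA 5 and 25, a 3.96-fold difference (1.49 to 13.2), and AHSA1 9 and 23, a 2.84-fold difference (1.27 to 6.97). These 5 had the highest log2 ratios, with 1 stop added, among the 25 members with at least 20 stops, and those with 0 listed passed by starved cells alone. The lowest by the same ratio, given here by fold without the added stop, were a second MALAT1 member with 7 and 23 stops, a 0.490-fold difference (0.204 to 1.35), and the SET member shown above with 12 and 16, a 0.757-fold difference (0.336 to 1.75). The others were the mitochondrial import receptor TOMM22 with 15 and 17 stops (0.762-fold, 0.358 to 1.64), the immunophilin FKBP4 with 29 and 8 (0.701-fold, 0.277 to 1.57) and NEAT1 with 6 and 24 (0.891-fold, 0.355 to 2.66). All 5 intervals held 1. Counts are not comparable between these libraries of unequal depth, and the fold is relative to the transcript mean. The strongest SET member, 9 nt after the one shown, had 29 and 139 stops, a 2.72-fold difference (1.81 to 4.21).

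A folding score places E in cells between the in vitro values in Li+ (0) and K+ (1). It could be set for 12 members that were at least 2-fold stronger in K+ in vitro and on transcripts with enough stops in all 4 DMS libraries. Positions not listed in cells entered with 0 stops, as 3 of the 12 did in unstressed cells. The median score was -0.0496 (-0.219 to 0.166) in unstressed and 0.370 (-0.0831 to 1.26) in starved cells, and it rose by at least 0.25 in 6 of 12. At 107 stops with the motif, the median was -0.237 in unstressed and 0.245 in starved cells, and 70 rose by that much, but only 62 of the 107 were listed in unstressed cells and the rest entered with 0 stops. Scores of AHSA1 went from 0.0981 to 1.52, of ENO2 from 0.0283 to 0.701 and of RPSA from -0.219 to 1.26. Those of the SET member shown above (0.100 and 0.0238) and NEAT1 (-0.127 and -0.151) stayed near the Li+ value. The MALAT1 member shown above was not listed in unstressed cells, so its -0.175 is the score of 0 stops, and it had -0.0831 in starved cells. The MALAT1 member 1 nt after it, also not listed in unstressed cells, went from -0.437 to 0.0407. PEA15, likewise not listed there, went from -0.610 to 1.48. The shift of all G positions towards starved cells enters the score as well. Scores were not computed over all G positions, so the counts of rises have no background share beside them.

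Most markers of a mesenchymal line were present. VIM had 55.5 listed stops per nucleotide in the library labelled Na+, SPARC 9.12, COL1A1 3.93, FN1 1.46 and CD44 1.18, whereas RUNX2 had 0.0339 and COL1A2 had no transcript listed. Of the markers of other origins, EPCAM had 0.0335, CDH1 0.00108 and PTPRC 0.00244, and KRT19, CD3E and ALB had no transcript listed.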

How the data were processed

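RT stops of polyA+ RNA from U2OS cells were analysed in 6 libraries, 1 per condition. Per the paper's methods and the processing notes, the authors removed duplicate reads with SAMtools, mapped the others with Bowtie to hg19 transcripts (versions not given) and deposited counts, as the count of stops at each nucleotide with at least 3. The deposited ratio is that count over the mean of the same base in the transcript, as tested on the files. Unlisted positions were counted as 0, and 1 stop was added for log2 ratios. Of 2723 transcripts past the minimum, 2629 were matched over their whole length to GENCODE release 44 on GRCh37, which gave motif and region, and gene names came from a RefSeq table. In all, 18 strong stops past the 2-fold difference and 25 under it could not be matched and were left out. ViennaRNA 2.7.2 gave free energies, scipy 1.17.1 the intervals and matplotlib 3.10.9 the plots, with pandas 2.3.3 and numpy 2.4.6 under Python 3.11.15. Only the ratio between libraries and the sequence classes were tested on simulated data. Named members were the 8 with the highest E, the 5 highest and 5 lowest ratios for each pair of DMS libraries with at least 20 stops, those of the 5 transcripts with most members (3 or more), any on 6 genes looked up by name, and the stops next to each limit. PCNP, EPN1, SRRM2, GSPT1, the 4 members at least 2-fold lower in K+, and the further MALAT1 and SET members were chosen after their values were seen. Members and lists were chosen with earlier results of these data known. Alternatives covered which library comes first, both limits, the transcript mean, unlisted positions, the motif, neighbouring stops, the counts required and the scaling.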

Additional observations from a re-analysis of the deposited data

How the results depend on the processing

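No paired analysis was possible because each condition had 1 library. With the library labelled K+ taken first, 350 stops were chosen, the median log2 ratio in vitro was -0.19 (26 compared) and 35.1% had at least 3 runs of G, while 58.6% lay in 3′ UTRs; the choice then takes other stops. An E of at least 20 left 122 members, with 69.7% in 3′ UTRs and 98.4% with at least 3 runs, and a 4-fold difference left 249, with 64.7% and 86.7%. The transcript mean rebuilt from the deposited ratio, which includes counts under 3, left 289 members, 78.9% of them with at least 3 runs. Allowing loops of 1 to 15 nt in the motif gave 40.5% with at least 3 runs, and counting GNG as a run gave 351 members and 38.5%, since both remove stops with several runs. With 1 stop per region, 53.9% had at least 3 runs. Requiring 20 stops over the pair gave a median of 0.67 in vitro. Relative to the mean of the same base, the median of starved over unstressed was 0.24. It was 0.49 over positions listed in both libraries and 0.57 with unlisted positions counted as 2, which lowers the 7 members not listed in unstressed cells. Beyond what these constructions show, the cause was not tested.

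An alternative chosen after seeing the data kept members whose counting interval of the ratio without DMS lay above 1. It gave 356 members, 63.8% in 3′ UTRs and 72.8% with at least 3 runs. Both medians of the DMS pairs stayed above 0 under every alternative run except the in vitro one with the library labelled K+ first. In cells, 0 is not the background value, since all G positions had a median of 0.62, so this sign sets the members apart from nothing. Relative to the mean of the same base, the interval of the members in cells (-0.34 to 0.50) held 0. The in vitro median stayed within its 95% interval in 12 of its alternatives and the starved over unstressed median in 13. Depth limits the DMS pairs, as 96 and 44 of 542 members could be compared.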

Other observations

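Stops at the other bases were compared by the same values. Of strong stops in the library labelled Na+, 3631 of 5431 at G (66.9%) were at least 2-fold stronger than in the library labelled K+, compared with 656 of 3216 at A (20.4%), 265 of 1353 at C (19.6%) and 316 of 1540 at U (20.5%). With both libraries exchanged, the shares were 17.4% of 2222 at G, 20.1% of 3587 at A, 18.5% of 1238 at C and 22.2% of 1565 at U. Of 386 matched stops at G in that direction, 36 (9.33%) had the motif.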
